A study of Mus musculus with 3 samples.

Results

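The genes that build the junctions between epithelial cells, and between these cells and their basement membrane, were examined in RNAseq of the mouse incisor enamel organ. They were the listed junction genes and every symbol made of Cldn and a number, which together came to 52 of the 20937 gene symbols with counts. They comprised 20 claudins, 6 other tight junction genes, 5 adherens junction genes and 12 desmosome genes. The rest were 2 gap junction genes and 7 genes grouped as hemidesmosome and laminin genes. This last group includes Itgb6, whose integrin is not a hemidesmosome component. Of the 52 genes, 51 had enough reads to be tested, and Cldn14, with 5, 2 and 1 counts in Stim1 cKO, Stim1 HT and Stim1 Ctrl, had not.

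Tissue came from mice aged 4 weeks, and the study compared the enamel organ with and without Stim1, the calcium sensor of the endoplasmic reticulum that opens store-operated calcium channels. Stim1 cKO carried the AmelX-iCre transgene and 2 floxed Stim1 alleles (Stim1 fl/fl), Stim1 HT (Stim1 Het in the labels) carried the transgene and 1 floxed allele, and Stim1 Ctrl was Cre-negative and Stim1 fl/fl. The Stim1 HT and Stim1 Ctrl libraries served together as controls, so the control group mixes a carrier and a non-carrier of the transgene. AmelX-iCre is active in ameloblasts from the secretory stage on, whereas RNA was taken from the whole enamel organ, so cells that never expressed Cre are in every library. Each genotype had 1 library (below, the cKO, HT and Ctrl libraries, and values given as 3 numbers stand in this order), with 20216507 to 28265960 counts, so the spread between animals of a genotype is not known, and the p-values rest on the difference between the 2 control genotypes.

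The enamel organ is an epithelium, and its ameloblasts deposit the enamel matrix and then transport calcium and remove matrix proteins while the mineral hardens. Tight junctions seal the space between cells, and their claudins set which ions pass. Adherens junctions and desmosomes couple the actin and keratin networks of neighbouring cells through cadherins. Hemidesmosomes hold basal cells to laminin in the basement membrane, and gap junctions connect the cytoplasm of neighbouring cells through connexin channels.

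Promoter sequence is shown for 5 of these genes. Cldn2 and Cgn had the highest fitted ratio of Stim1 cKO to the controls among the tested claudins and the other tight junction genes. Itgb6 had the lowest among the hemidesmosome and laminin genes, and Cldn3 and Cldn4 are neighbours on chromosome 5 that were both lowest in Stim1 Ctrl. The RefSeq table for GRCm38.p6 held 48 promoters for 32 of the 52 genes, each running from 250 bases before the start of the transcript to 50 bases after it. Each sequence below runs 5′ to 3′ on the strand of its gene and stops 30 bases after the start. Capitals mark a match to the motifs searched on both strands, which were the E-box CACCTG bound by Snail and Zeb repressors, the TATA box TATAAA, the AP-1 site TGANTCA and the grainyhead site AACCNGGTT. The coordinates are chrX:139800558-139800837 (plus strand) for Cldn2, chr3:94786453-94786732 (minus strand) for Cgn, chr2:60722574-60722853 (minus strand) for Itgb6, chr5:134985964-134986243 (plus strand) for Cldn3 and chr5:134946905-134947184 (minus strand) for Cldn4.
Cldn2: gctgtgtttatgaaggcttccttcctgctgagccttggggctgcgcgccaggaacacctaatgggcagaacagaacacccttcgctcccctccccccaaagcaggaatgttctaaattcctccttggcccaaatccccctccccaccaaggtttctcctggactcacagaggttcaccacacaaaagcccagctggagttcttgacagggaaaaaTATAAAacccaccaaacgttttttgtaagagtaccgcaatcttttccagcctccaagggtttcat
Cgn: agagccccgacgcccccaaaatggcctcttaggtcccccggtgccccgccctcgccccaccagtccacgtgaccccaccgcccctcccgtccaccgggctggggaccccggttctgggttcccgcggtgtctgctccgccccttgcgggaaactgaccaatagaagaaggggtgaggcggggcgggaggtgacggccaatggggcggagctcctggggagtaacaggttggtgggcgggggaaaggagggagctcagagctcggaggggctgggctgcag
Itgb6: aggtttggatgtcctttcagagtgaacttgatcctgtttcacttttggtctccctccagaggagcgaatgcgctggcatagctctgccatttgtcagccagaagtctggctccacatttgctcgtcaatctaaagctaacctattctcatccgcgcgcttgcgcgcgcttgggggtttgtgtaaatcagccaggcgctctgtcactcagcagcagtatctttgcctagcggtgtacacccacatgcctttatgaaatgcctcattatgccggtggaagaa
Cldn3: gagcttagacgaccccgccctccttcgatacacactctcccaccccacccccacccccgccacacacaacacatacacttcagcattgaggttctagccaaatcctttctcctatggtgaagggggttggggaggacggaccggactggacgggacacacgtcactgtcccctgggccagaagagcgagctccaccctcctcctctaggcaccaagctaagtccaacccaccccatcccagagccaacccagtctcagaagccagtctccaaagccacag
Cldn4: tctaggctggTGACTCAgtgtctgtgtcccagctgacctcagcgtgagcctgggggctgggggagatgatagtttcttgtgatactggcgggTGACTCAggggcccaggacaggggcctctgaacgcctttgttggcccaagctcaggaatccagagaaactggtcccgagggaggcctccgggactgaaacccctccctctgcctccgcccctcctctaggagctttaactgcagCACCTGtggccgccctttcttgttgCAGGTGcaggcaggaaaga

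Cldn2 had a TATA box at positions 216 to 221 of its sequence, counted from the 5′ end. Cldn4 had E-boxes at positions 237 to 242 and 262 to 267, and AP-1 sites at positions 11 to 17 and 93 to 99. The E-box of Cldn3, at positions 282 to 287, lies past the end of the stretch printed, and Cgn and Itgb6 had no match in these windows (for Itgb6, in the promoter printed of 2 in the table). An E-box was present in 19 of the 48 promoters of junction genes (39.6%), from 15 genes, and in 20.2% of all 32851 promoters of the same length. The TATA box was present in 10.4% of the junction promoters and 13.6% of all, and the AP-1 site in 8.33% and 7.81%. The grainyhead site was in none of the 48 and in 0.271% of all. Promoters of a gene can overlap, so they are not independent, and these shares are a description only.

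Stim1, the targeted gene, had 72.8 CPM (counts relative to library size, scaled by TMM factors) in the cKO, 129 in the HT and 186 in the Ctrl library. This order follows the number of intact alleles, but 25.4% of all genes had it. The log2 fold change was -1.11 (edgeR adjusted p = 0.106, and 0.0225 with DESeq2). Markers of other tissues set the libraries apart, as the plot of marker lists shows. In all 3 libraries the enamel matrix gene Amelx was present (2065 CPM in the cKO, 20016 in the HT and 14088 in the Ctrl library). The fibroblast collagen gene Col1a1 was present too (21092, 22640 and 37268), so the libraries held RNA of cells other than ameloblasts. The sum over 7 photoreceptor genes was 1034 CPM in Stim1 cKO and 12.9 and 11.7 in the controls, and that over 8 lens genes was 336 against 14.9 and 13.4. The 8 neuron genes summed to 1010, 283 and 234 CPM in that order, and the 7 genes of olfactory and respiratory epithelium to 923, 341 and 8.47. Skeletal muscle genes (10) summed to 4922, 23840 and 32153 CPM, and secretory ameloblast genes (6) to 3693, 31400 and 23312. Genes of the mitochondrial genome took 5.2% of counts in Stim1 cKO and 2.58% and 2.82% in the controls. In whole tissue, fewer cells of a type and less RNA per cell cannot be told apart, and the part of these differences in any value below was not tested except where a value is given.

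**Figure D1:**
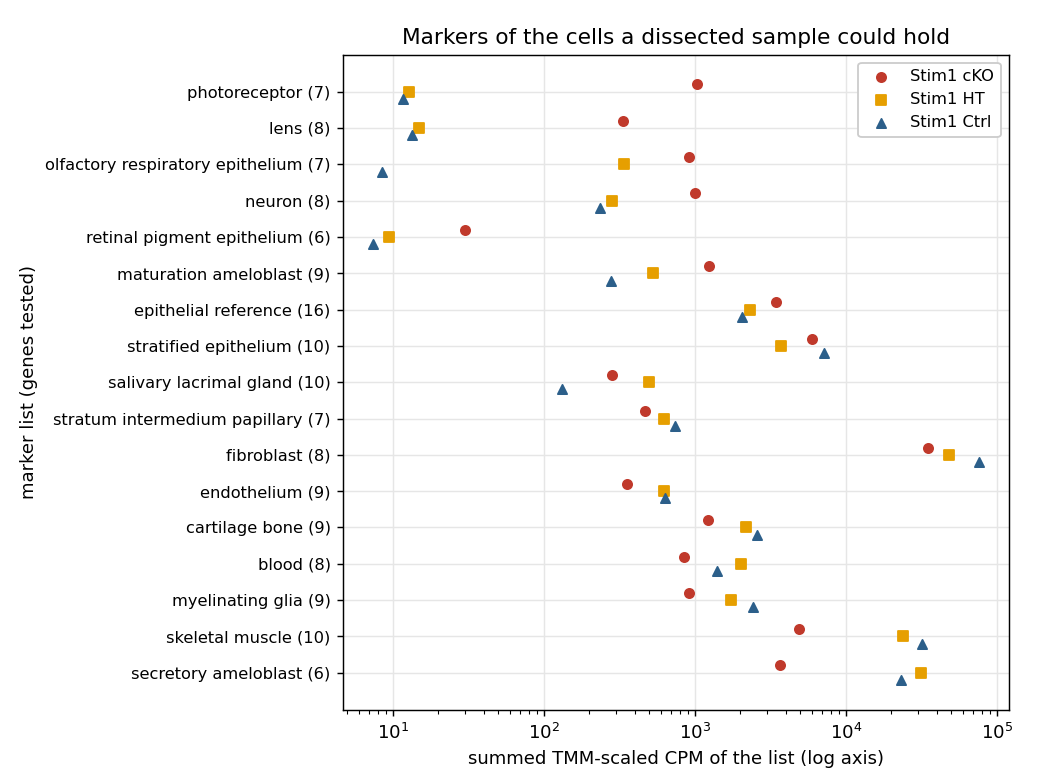
Summed TMM-scaled CPM (log axis) of each marker list in the Stim1 cKO, Stim1 HT and Stim1 Ctrl libraries, 1 point per library, with the number of genes tested in each list. Photoreceptor, lens and neuron genes were highest in Stim1 cKO, olfactory and respiratory genes were graded from Stim1 cKO to Stim1 Ctrl, and muscle and secretory ameloblast genes were lowest in Stim1 cKO.

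No junction gene passed the thresholds of an adjusted p under 0.01 and a fold change over 2 in edgeR's quasi-likelihood test (0 of 51, where 0.0749% of all 18702 genes tested were called). At an unadjusted p under 0.05, 10 were higher and 5 lower in Stim1 cKO, 15 of 51 in all (29.4%), beside 31.9% of all genes. At an adjusted p under 0.05 and over 2-fold, edgeR passed Cldn2, Dsg2, Dst and Cgn as higher (4 of 51, beside 6.8% of all genes) and Cldn13 as lower (1 of 51, beside 2.88%). DESeq2, the tool of the study, called the same 4 genes higher at the threshold of 0.01 (beside 5.92% of all genes) and Cldn13 and Cldn19 lower (beside 4.71%). By size alone, 7 of 51 exceeded each control by over 2-fold in Stim1 cKO, beside 19.1% of all genes, and 5 of 51 were over 2-fold lower, beside 8.23%. Against Stim1 Ctrl alone, without Stim1 HT, 16 were over 2-fold higher (beside 25.2% of all genes). With no minimum size, 25 of 51 were above both controls (43.6% of all genes) and 16 below both (42.1%). The median log2 fold change of the 51 genes was 0.09, beside -0.01 for all genes.

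The medians of the classes spread more widely around this value. The median was 0.34 over the 6 other tight junction genes, 0.15 over 19 claudins, 0.06 over 12 desmosome genes, -0.01 over 5 adherens junction genes, -0.34 over 2 gap junction genes and -0.63 over 7 hemidesmosome and laminin genes. The last class includes Itgb6 (-1.18), and its other genes ran from -0.94 (Plec) to 1.44 (Dst). Claudins held both ends of the range, from -4.44 (Cldn13) to 2.24 (Cldn2). Stim1 HT was the highest library for 7 of 51 genes (24.1% of all genes) and the lowest for 13 (24.3%). Claudins also held all 8 junction genes that differed over 2-fold between the controls (15.7% of the 51, beside 13.5% of all genes). Some of the 8 had few reads, such as Cldn22 (6 counts in Stim1 Ctrl), Cldn9 (14 in Stim1 Ctrl) and Cldn17 (16 in Stim1 HT). The plot of the ratios to each control shows the 8 off the diagonal.

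**Figure D2:**
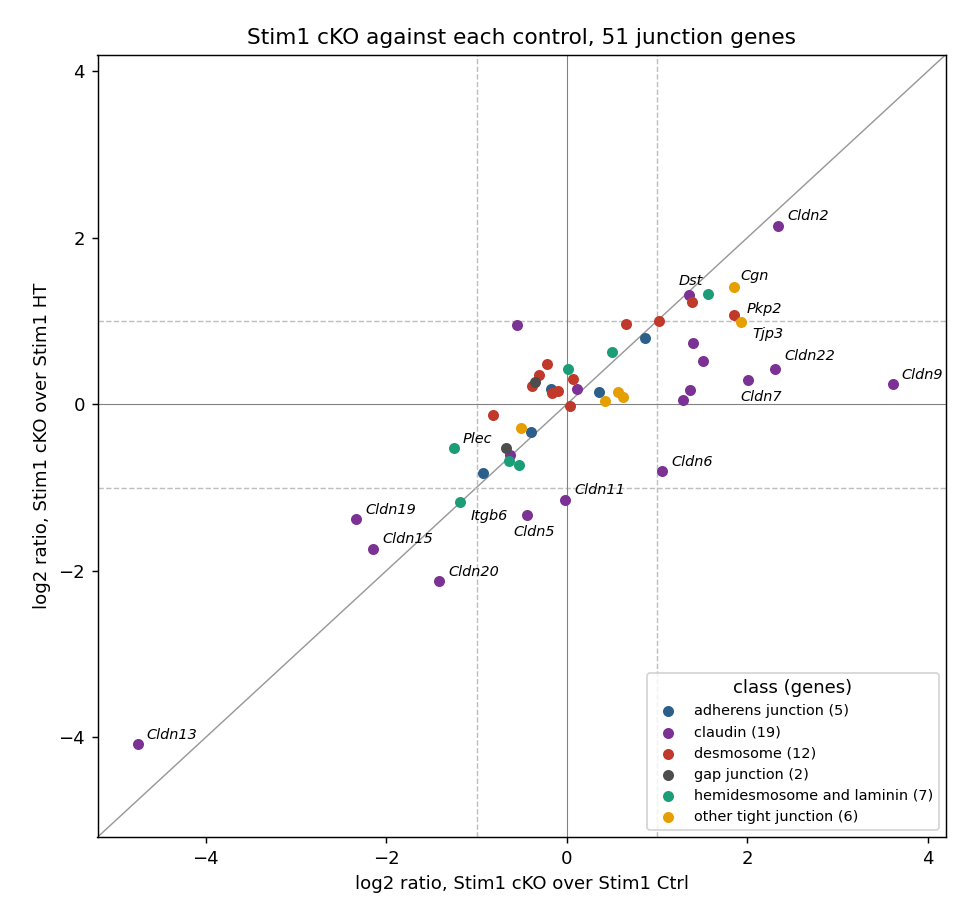
Log2 ratio of Stim1 cKO to Stim1 Ctrl (horizontal) and to Stim1 HT (vertical) for the 51 junction genes tested, 1 point per gene coloured by class, with dashed lines at 2-fold and the line of equal ratios. Cldn2 lies at the upper right and Cldn13 at the lower left near the diagonal, and Cldn7, Cldn9 and Cldn22 lie to the right of it, with a higher ratio to Stim1 Ctrl than to Stim1 HT.

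Cldn2, which forms a pore for cations and water, had 27.8 CPM in the cKO (95% Wilson interval 25.8 to 29.98), 6.30 in the HT (5.28 to 7.505) and 5.48 in the Ctrl library (4.65 to 6.46). The controls lay close together and Stim1 cKO far above them. Its log2 fold change was 2.24 (edgeR adjusted p = 0.0275, and DESeq2 2.24 with a standard error of 0.518). This is the gene whose TATA-containing promoter is printed above. Cldn10, whose isoforms form cation or anion channels, had 28.3, 11.4 and 11.1 CPM in the same order of libraries, a log2 fold change of 1.33 (edgeR adjusted p = 0.0539, and 0.0307 to 0.0539 over DESeq2 and the other fits). Both were over 2-fold higher than each control. Of 10 genes of salivary and lacrimal glands, 5 were too (19.1% of all genes were). Examples are Aqp5, a water channel of gland cells (77.3, 18.4 and 8.63 CPM), and Amy1, an amylase (17.3, 2.89 and 1.44). Another is the mucin gene Muc19 (57.7, 6.09 and 0.933). Pip (2.52, 6.19 and 49.9) and Lpo (0.909, 8.07 and 35.5) were over 2-fold lower, the 10 genes summed to 284, 496 and 132 CPM, and their part in these claudin values was not tested.

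Several claudins, most of them typical of simple epithelia, were graded across the libraries, with Stim1 Ctrl lowest. Cldn3 had 40.5 CPM in the cKO, 28.3 in the HT and 14.2 in the Ctrl library. Cldn4 had 39.4, 38.1 and 16.1, Cldn7 had 30.3, 24.7 and 7.54, and Cldn23 had 10.1, 8.93 and 3.92. Cldn9 was at 6.65 CPM in Stim1 cKO and 5.64 in Stim1 HT, and at 0.544 (0.324 to 0.913) in Stim1 Ctrl, where it had 14 counts. In each of these 5 genes the Stim1 HT library was thus nearer to Stim1 cKO than to the other control. Their edgeR adjusted p-values ran from 0.209 to 0.552, and the fold change of Cldn4 turned negative relative to general epithelial genes (-0.016). Stim1 cKO was highest and Stim1 Ctrl lowest in 9 of 19 claudins (26.3% of all genes had this order). Of 7 olfactory and respiratory genes, 6 were graded the same way, with Foxj1, a regulator of motile cilia, at 77.5, 26.7 and 1.32 CPM and Omp, a protein of olfactory neurons, at 221, 105 and 0.622. Epcam, a protein of simple epithelia, had 112, 91.1 and 42.0 CPM, and the 9 maturation ameloblast genes, 5 of them in this order, summed to 1251, 528 and 278. The part of these cells in the claudin levels was not tested.

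Cldn8, a barrier claudin, had 14.3, 8.63 and 5.44 CPM and took the same order. Cldn22 had 1.16, 0.863 and 0.233 CPM, on 28, 17 and 6 counts, and its exons lie wholly inside those of Wwc2 on the opposite strand, so its reads are uncertain. Cldn12 was nearly level at 24.4, 21.5 and 22.6 CPM. Cldn6 and Cldn17 were low, with 1.86, 3.25 and 0.894 CPM for Cldn6 and 1.57, 0.812 and 2.29 for Cldn17, and for both the controls were farther apart than Stim1 cKO was from either.

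Lower in Stim1 cKO by over 2-fold than each control were Cldn13, Cldn15, Cldn19 and Cldn20. Cldn13, a rodent claudin known from blood-forming tissue, had 0.454 CPM (0.254 to 0.814, on 11 counts) in the cKO, 7.72 (6.58 to 9.04) in the HT and 12.3 (10.998 to 13.7) in the Ctrl library. The log2 fold change was -4.44 (edgeR adjusted p = 0.0281), the lowest of the 51 genes. Cldn13 (chr5:134914249-134915526 on GRCm38) lies in the same stretch of chromosome 5 as Cldn4 (chr5:134945119-134946934) and Cldn3 (chr5:134986214-134987472), neither of which passed the test (edgeR adjusted p = 0.497 and 0.209). Of 8 blood genes, 2 had the order of Cldn13 (25.4% of all genes had it). Ngp, a granule protein of developing neutrophils, had 3.84, 42.3 and 60.8 CPM. Alas2, the erythroid enzyme of haem synthesis, had 23.1, 61.5 and 83.6. Another 4, among them the globin gene Hba-a1 (290.1, 768 and 586 CPM), were lowest in Stim1 cKO but highest in Stim1 HT, and the leukocyte genes Ptprc (19.2, 14.2 and 9.44) and Cd79a (6.98, 4.01 and 0.894) ran the opposite way. The sum of the 8 genes was 851, 2019 and 1415 CPM, and the part of blood cells in the Cldn13 values was not tested.

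Cldn19, a claudin of kidney, retina and the myelin of Schwann cells, had 10.9 CPM in the cKO, 28.2 in the HT and 54.8 in the Ctrl library, so that the controls themselves stood nearly 2-fold apart. The log2 fold change was -1.93 (edgeR adjusted p = 0.0671, and 0.00292 with DESeq2 to 0.0898). Of 9 myelinating glia genes, 6 had the same order (25.4% of all genes had it), and 3 were highest in Stim1 cKO. An example of the 6 is Mag, a glycoprotein of myelin, at 8.43, 16.6 and 24.9 CPM. The 9 genes summed to 923, 1746 and 2431 CPM, and their part in the Cldn19 values was not tested. Genes of the retinal pigment epithelium, which also holds this claudin, summed to 29.99, 9.49 and 7.46 CPM over 6 genes, highest in Stim1 cKO. Cldn15, a channel for cations in the gut, had 0.702, 2.34 and 3.11 CPM on 17, 46 and 80 counts (edgeR adjusted p = 0.121). Cldn20 had 2.69, 11.7 and 7.15 CPM (edgeR adjusted p = 0.105).

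Claudins of other barriers were below both controls by less. Cldn5, the main claudin of endothelium, had 27.0 CPM in the cKO, 67.7 in the HT and 36.5 in the Ctrl library, a log2 fold change of -0.95 (edgeR adjusted p = 0.2). Of 9 endothelial genes, 7 were also below both controls (42.1% of all genes were). Of these, 3 had the order of Cldn5, for example Emcn, a sialomucin of endothelium, at 19.3, 35.7 and 28.4 CPM. The other 4 of the 7 were highest in Stim1 Ctrl, for example Cdh5, the cadherin of endothelium, at 34.3, 138 and 154, and Flt1 was highest in Stim1 cKO (61.2, 40.2 and 48.6). The 9 genes summed to 354, 627 and 633 CPM, and their part in the Cldn5 values was not tested. Cldn11, a claudin of central myelin and the testis, had 9.05 and 9.17 CPM in Stim1 cKO and Stim1 Ctrl and 20.0 in Stim1 HT. Cldn1, the barrier claudin of stratified epithelium and the most counted claudin in every library, had 72.7, 111 and 113 CPM and a log2 fold change of -0.62 (edgeR adjusted p = 0.176).

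**Figure D3:**
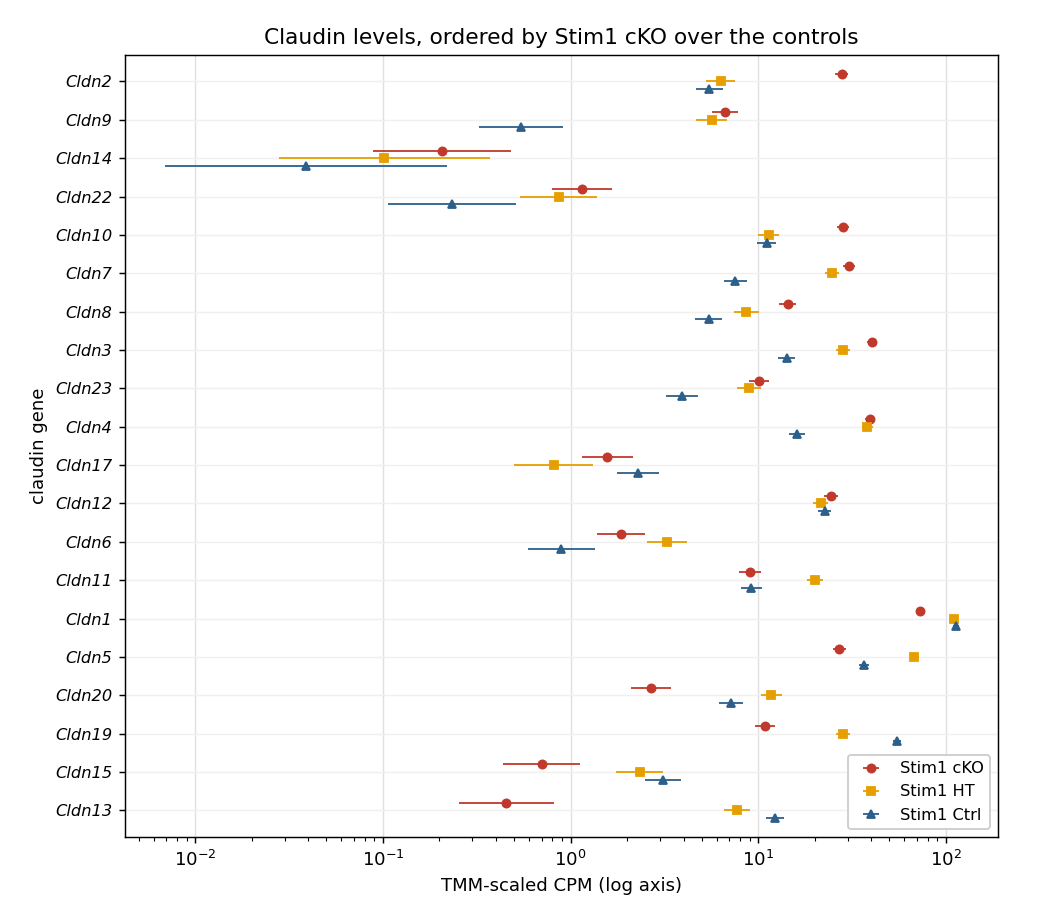
TMM-scaled CPM (log axis) of the 20 claudins in each library, ordered by the ratio of Stim1 cKO to the controls, with 95% Wilson intervals that cover counting error only. In Cldn2 and Cldn10 the controls coincide below Stim1 cKO, in Cldn7, Cldn9 and Cldn23 Stim1 Ctrl lies apart below the other libraries, and in Cldn13, Cldn15, Cldn19 and Cldn20 Stim1 cKO lies below both controls.

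On a scale of CPM per kilobase of exon, the leading claudin differed between libraries. The length is that of all annotated exons of a gene merged, not of the transcript expressed. Comparisons between genes on this scale, here and below, are thus approximate. Cldn3 led in Stim1 cKO with 20.0% of the summed claudin level, and Cldn4 followed with 13.5%. In Stim1 HT, Cldn5 led with 24.2% and Cldn1 came next with 11.6%, and in Stim1 Ctrl the same claudins led with 19.3% and 17.4%. Cldn2 made up 5.21% in the cKO, 0.958% in the HT and 1.23% in the Ctrl library. Per length, the level of Cldn3 was 2.14 times that of Cldn1 in the cKO, 0.979 times in the HT and 0.484 times in the Ctrl library. The summed level of the 20 claudins was 161, 198 and 133 CPM per kilobase in that order, highest in Stim1 HT.

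**Figure D4:**
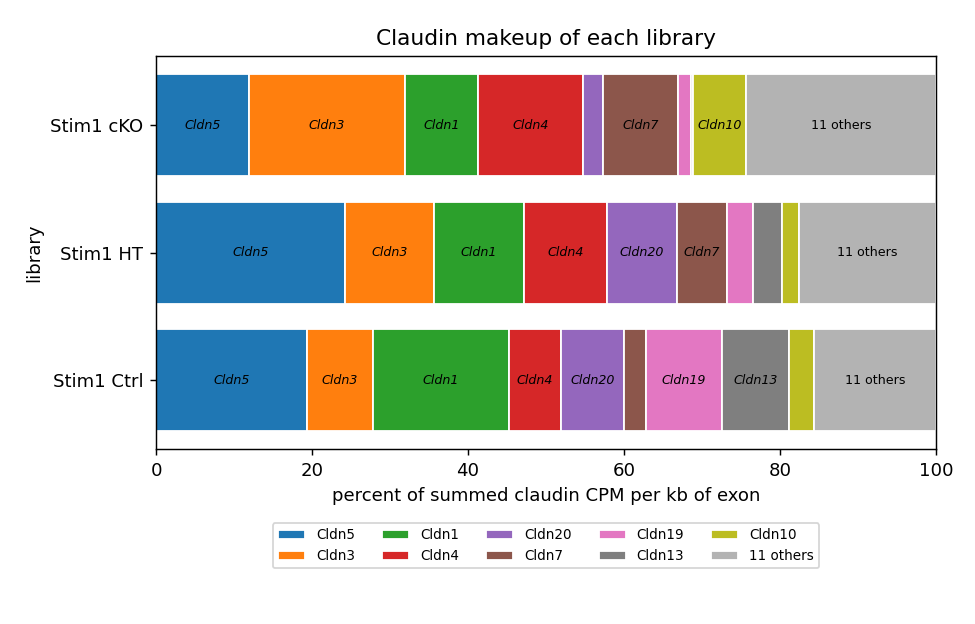
Share of each claudin (percent) in the summed claudin CPM per kilobase of exon, 1 bar per library, with the 9 leading claudins coloured and 11 others in grey. Cldn3 takes 20.0% in Stim1 cKO and 8.44% in Stim1 Ctrl, and Cldn19 and Cldn13 take 9.63% and 8.62% in Stim1 Ctrl and 1.59% and 0.265% in Stim1 cKO.

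Among the other tight junction genes, 5 of 6 were highest in Stim1 cKO and lowest in Stim1 Ctrl (26.3% of all genes had this order), although F11r, Ocln and Marveld2 lay below the controls once set against general epithelial genes. Cgn encodes cingulin, which links tight junctions to actin and microtubules, and had 36.3 CPM in the cKO (34.0 to 38.8), 13.7 in the HT (12.2 to 15.4) and 10.1 in the Ctrl library (8.91 to 11.4). The counting intervals of the libraries did not meet, the controls were the nearer pair, and the log2 fold change was 1.61 (edgeR adjusted p = 0.0432, DESeq2 1.61 with a standard error of 0.474). Tjp3, a scaffold of the zonula occludens family, had 33.6, 17.0 and 8.78 CPM, about evenly spaced on the log scale, and a log2 fold change of 1.39 (edgeR adjusted p = 0.107). Occludin (Ocln), a strand protein of the tight junction, had 12.0, 11.3 and 7.77 CPM, and tricellulin (Marveld2), which seals the corners where 3 cells meet, had 10.1, 9.80 and 7.5. F11r, a junctional adhesion molecule, had 76.7, 69.4 and 51.9 CPM.

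The scaffold Tjp1 went the other way, with 79.8 CPM in the cKO, 97.2 in the HT and 113 in the Ctrl library (log2 fold change -0.40, edgeR adjusted p = 0.354). Tjp1 is also expressed in many cells that are not epithelial. Per length, the level of Cgn was 0.590 times that of Tjp1 in the cKO, 0.183 times in the HT and 0.115 times in the Ctrl library, and that of Tjp3 was 0.885, 0.367 and 0.163 times.

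Of the 12 desmosome genes, 3 exceeded both controls over 2-fold in Stim1 cKO (19.1% of all genes did). Dsg2, a desmosomal cadherin of simple epithelia and heart, had 61.3 CPM in the cKO (58.3 to 64.5), 26.1 in the HT (23.9 to 28.4) and 23.5 in the Ctrl library (21.7 to 25.5), a log2 fold change of 1.31 (edgeR adjusted p = 0.0361, and 0.00664 with DESeq2). Pkp4, a plakophilin relative found at several kinds of junction, had 163, 81.3 and 80.5 CPM and a log2 fold change of 1.012 (edgeR adjusted p = 0.067, and 0.0137 with DESeq2 to 0.0703). Pkp2, the plakophilin of simple epithelia and heart, had 14.0, 6.65 and 3.89 CPM, with Stim1 HT between the others (1.41, edgeR adjusted p = 0.127). The desmocollin Dsc2 had 120, 61.6 and 76.2 CPM (0.80, edgeR adjusted p = 0.12).

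Stim1 HT was the lowest library for 7 of 12 desmosome genes (24.3% of all genes were lowest there). These were Dsc2, Dsc3, Dsp, Jup, Pkp1, Pkp3 and Ppl. Desmoplakin (Dsp), which ties the desmosome to keratin, had 369 CPM in the cKO, 263 in the HT and 429 in the Ctrl library. Plakophilin Pkp1, a protein of stratified epithelium, had 198, 170 and 258, and plakoglobin (Jup), a catenin of desmosomes and adherens junctions, had 175, 159 and 195. Periplakin (Ppl) had 92.7, 72.5 and 114 CPM, whereas envoplakin (Evpl), its partner in the cornified envelope, was lowest in Stim1 cKO at 64.4, 70.5 and 114. The remaining pair, Dsc3 (79.5, 64.4 and 75.8 CPM) and Pkp3 (53.7, 48.2 and 57.6), had closer values.

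Of 10 markers of stratified epithelium, 9 were lowest in Stim1 HT as well. Loricrin (Lor), of the cornified envelope, had 313 CPM in the cKO, 113 in the HT and 454 in the Ctrl library, the keratin Krt1 had 350, 158 and 306, and Sprr1a had 67.5, 34.0 and 97.5. The 10 genes summed to 5961, 3717 and 7167 CPM. Desmosome genes outside the members that belong to cornified layers were lowest there too, with Dsc1 at 15.6, 4.67 and 22.4 CPM and Cdsn at 27.5, 10.9 and 41.5. How much of the desmosomal signal came from such cells was not tested.

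Perp, a tetraspan protein of desmosomes, had nearly the same level everywhere, with 319 CPM in the cKO, 324 in the HT and 310 in the Ctrl library. Among the 9 desmosomal cadherins in the table, of which Dsg2, Dsc2 and Dsc3 are members, Dsg2 made up 11.3% of the summed level per length in the cKO, 8.2% in the HT and 5.06% in the Ctrl library. The largest share among those outside the members was that of Dsg1a, with 13.2%, 20.2% and 25.5%, a gene with near-identical copies among which reads may be split. Among plakophilins, Pkp1 led in every library, with 46.1%, 54.0% and 62.6%, and Pkp4 made up 33.4%, 22.7% and 17.2%.

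**Figure D5:**
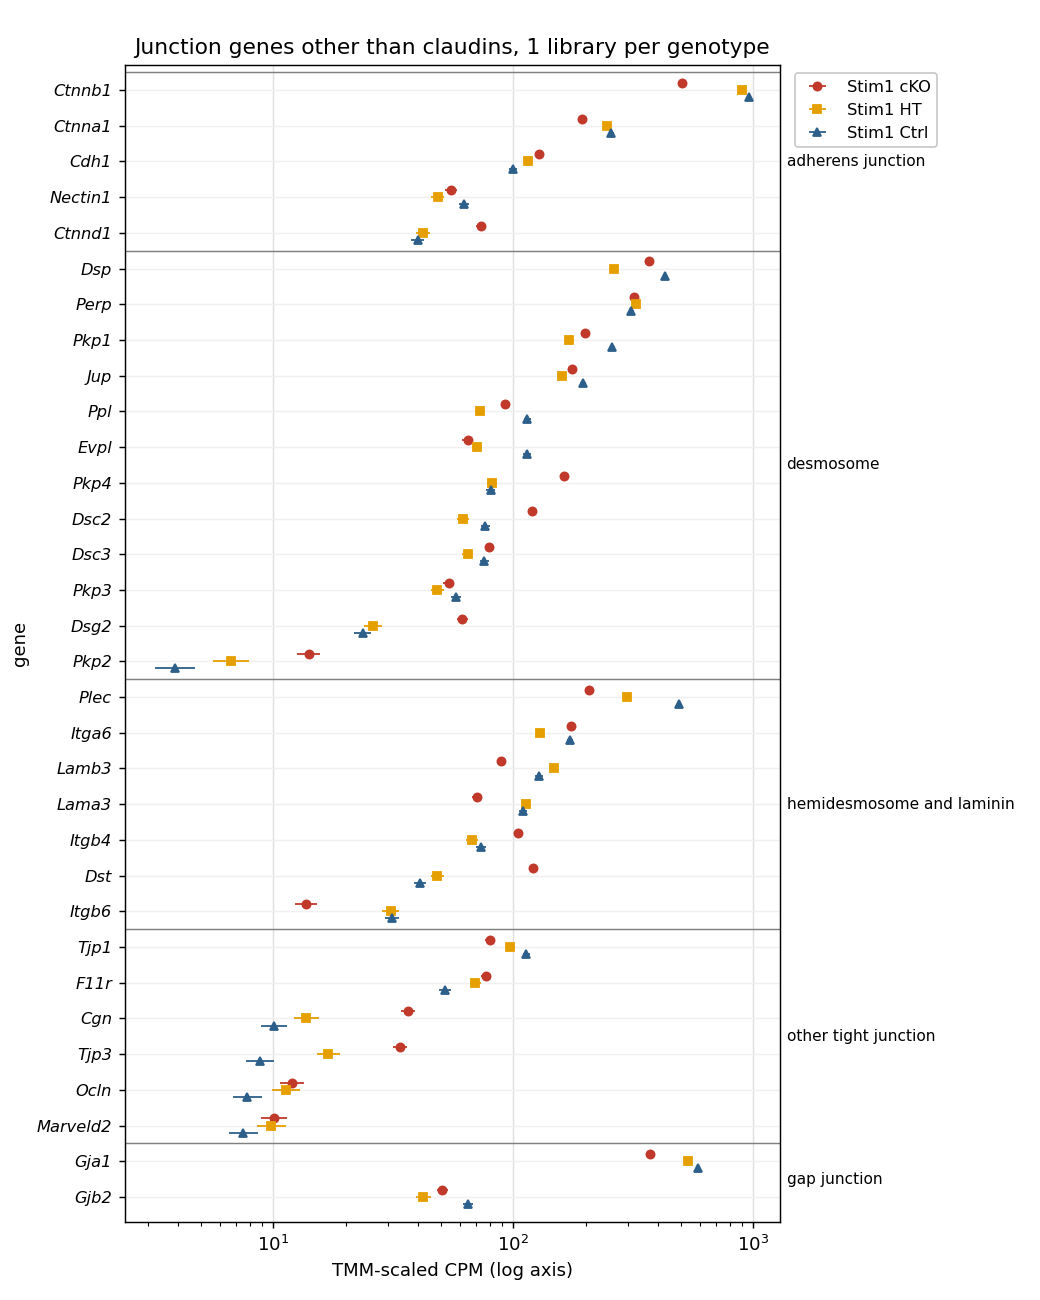
TMM-scaled CPM (log axis) of the 32 junction genes other than claudins, by class and by level in Stim1 Ctrl, 1 point per library with 95% Wilson intervals that cover counting error only. Stim1 cKO lies to the right of both controls for Dsg2, Pkp4, Dst, Cgn and Tjp3 and to the left for Ctnnb1, Lama3, Lamb3 and Itgb6.

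Adherens junction genes had no member over 2-fold from both controls. Ctnnb1 encodes beta-catenin, which binds classical cadherins and also carries Wnt signals, and had 504 CPM in the cKO, 894 in the HT and 959 in the Ctrl library (log2 fold change -0.88, edgeR adjusted p = 0.161, and 0.0196 with DESeq2 to 0.266). Alpha-catenin (Ctnna1) had 194, 245 and 256 CPM. E-cadherin (Cdh1), their epithelial partner, was in the opposite order at 128, 115 and 99.9 CPM. Ctnnd1, the catenin that stabilizes cadherins at the membrane, had 73.1, 42.0 and 39.9 (0.83, edgeR adjusted p = 0.0826). Nectin1, an adhesion molecule that is known to join ameloblasts to the stratum intermedium, had 54.9, 48.3 and 62.2 CPM. Per length, beta-catenin was at 3.47 times the level of E-cadherin in the cKO, 6.83 times in the HT and 8.45 times in the Ctrl library, and unlike Cdh1 both Ctnnb1 and Ctnna1 are also expressed outside epithelia. The 8 fibroblast genes summed to 35148, 48632 and 75789 CPM, of which Col1a1 alone gave 21092, 22640 and 37268. In Stim1 cKO, 7 of the 8 were below both controls (42.1% of all genes), and Thy1 was highest (58.2, 48.0 and 56.3). The part of such cells in the catenin values was not tested. Exons of Ctnnd1 and Ctnnb1 overlap those of other genes, as do those of 11 more members, and the strand setting of the counts is not given in the sources used here.

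In the hemidesmosome and laminin group, the integrin subunit gene Itgb6 was over 2-fold lower in Stim1 cKO. Its product activates latent TGF-beta with its partner Itgav, and its loss disturbs enamel. Itgb6 had 13.7 CPM in the cKO (12.3 to 15.2), 30.8 in the HT (28.4 to 33.3) and 31.1 in the Ctrl library (29.0 to 33.4). The intervals of the controls overlapped, and the log2 fold change was -1.18 (edgeR adjusted p = 0.0573, and 0.0318 with DESeq2 to 0.0961). Itgav had 71.9, 106 and 139 CPM. Of the 6 secretory ameloblast genes, 4 were also over 2-fold below both controls (8.23% of all genes), with Amelx as given above, Ambn, a matrix protein, at 1149, 9312 and 7071 CPM and Enam at 286, 1722 and 1856, and Sp6, a transcription factor of ameloblasts, at 57.5, 164 and 140. Mmp20 (84.4, 123 and 98.4) and Dlx3 (51.6, 63.5 and 59.4) were below both by less. Of 9 maturation ameloblast genes, 4 were over 2-fold higher than both controls (19.1% of all genes) and 0 lower. They summed to 1251, 528 and 278 CPM, and the part of either stage in the Itgb6 values was not tested.

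The laminin chain genes shared an order. Lama3 had 70.3 CPM in the cKO, 113 in the HT and 110 in the Ctrl library, and Lamb3 had 88.9, 147 and 128. The log2 fold changes were -0.66 for Lama3 and -0.63 for Lamb3 (edgeR adjusted p = 0.157 and 0.194). In both genes Stim1 cKO was lowest and Stim1 HT highest, and the level of Lama3 per length stayed at 0.486, 0.472 and 0.528 times that of Lamb3.

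The integrin that binds this laminin in hemidesmosomes had another order. Itga6 had 174 CPM in the cKO, 129 in the HT and 172 in the Ctrl library, and Itgb4 had 104, 67.2 and 73.3. The hemidesmosomal collagen gene Col17a1 had 196, 154 and 160. Per length, the level of Lamb3 was 0.906 times that of Itgb4 in the cKO, 2.32 times in the HT and 1.85 times in the Ctrl library. The intervals of Itga6 in Stim1 cKO (169 to 179) and Stim1 Ctrl (167 to 178) overlapped. Relative to the general epithelial genes, the log2 fold change was -0.35 for Itga6 and 0.01 for Itgb4.

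The plakins that tie hemidesmosomes to keratin were opposite to each other. Dst, whose isoforms act in hemidesmosomes, neurons and muscle, had 120 CPM in the cKO (116 to 125), 48.2 in the HT (45.2 to 51.3) and 40.8 in the Ctrl library (38.4 to 43.3). The log2 fold change was 1.44 (edgeR adjusted p = 0.0357, and 0.000616 with DESeq2 to 0.0387). Counts per gene do not separate the isoforms. The order of Dst was also that of 5 of the 8 neuron genes (26.3% of all genes had it). An example is Tubb3, a tubulin of neurons, at 192, 62.1 and 33.2 CPM. Rbfox3 was also highest in Stim1 cKO (78.8, 3.00 and 3.69), whereas the neurofilament genes Nefl (49.99, 37.4 and 50.2) and Nefm (41.4, 42.7 and 71.3) did not exceed Stim1 Ctrl in Stim1 cKO. Plectin (Plec), which is also abundant in muscle, had 206, 297 and 490 CPM (-0.94, edgeR adjusted p = 0.202). This was the order of 7 of the 10 muscle genes and of 25.4% of all genes. Of the rest, Mylpf and Myog were highest in Stim1 HT, and Myh4 ran the opposite way (473, 318 and 29.1 CPM). The part of neurons and muscle in the Dst and Plec values was not tested.

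Both connexin genes among the members were within 2-fold of each control. Gja1, a connexin of bone and the enamel organ, had 370 CPM in the cKO, 532 in the HT and 589 in the Ctrl library (log2 fold change -0.60, edgeR adjusted p = 0.268). Gjb2 had 50.6, 42.2 and 64.5 CPM, with Stim1 HT lowest. Gjb6, which pairs with Gjb2 in mixed channels, was level at 10.4, 10.9 and 11.04.

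The junction genes outside the members were read from a further list, of which 59 were in the table and 56 were tested. None was called by edgeR at an adjusted p under 0.01, and at an unadjusted p under 0.05, 7 were higher and 15 lower (beside 18.5% and 13.4% of all genes). DESeq2 called 8 of them at the threshold of 0.01, of which 2 were higher and 6 lower (beside 5.92% and 4.71% of all genes). Their median log2 fold change was -0.24. In this list, 4 genes were over 2-fold higher than both controls (19.1% of all genes). They were Ildr1, a protein of tricellular junctions (23.5 CPM in the cKO, 9.75 in the HT and 3.96 in the Ctrl library), the stratified desmoglein Dsg3 (39.0, 12.2 and 19.3), the actin-binding adherens protein Afdn (236, 106 and 113) and Gjd2, the connexin of neurons (11.03, 1.22 and 0.466). Over 2-fold lower were 8 genes (8.23% of all genes), 6 of them connexins. Gja3 had 0.33, 9.90 and 9.48 CPM and Gjd4 had 0.124, 6.70 and 7.42. Lamc1, the laminin chain of most basement membranes, was lower too, at 93.1, 322 and 549 CPM.

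Relative to a list of 16 general epithelial genes, whose median log2 fold change was 0.56, the fold changes of the junction genes were lower, with a median of -0.47. This list includes the basal keratin gene Krt5 (1310 CPM in the cKO, 893 in the HT and 949 in the Ctrl library), Krt18, a keratin of simple epithelia (148, 64.9 and 46.7), and Grhl2, a regulator of junction genes (31.8, 17.8 and 13.5). In Stim1 cKO, 13 of the 16 were above both controls (43.6% of all genes) and 2 below both (42.1%). Those below were Krt17 (120, 220 and 180) and Cdh3, itself a cadherin of adherens junctions (20.0, 31.3 and 30.4). After subtraction of the medians of this list, 1 junction gene, Cldn2, was over 2-fold above both controls (log2 ratios of 1.76 to Stim1 HT and 1.49 to Stim1 Ctrl), in place of 7. Over 2-fold below both controls were 9, which were the earlier 5 and Cldn5, Ctnnb1, Lama3 and Lamb3. The subtraction lowered the log2 ratios of every gene, by 0.39 to Stim1 HT and 0.86 to Stim1 Ctrl. It thus pushes such counts the same way in any set of genes. The shares of all genes on this scale were not computed. The fold change turned negative for 12 genes, among them Cdh1 (-0.31), Cldn4 (-0.016), Ocln (-0.23), Marveld2 (-0.34) and F11r (-0.22). For Ctnnb1 it was -1.44 and for Itgb6 -1.74. Among the genes whose fold change stayed positive were Cgn (1.05), Dst (0.88), Pkp2 (0.85) and Tjp3 (0.83).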

How the data were processed

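Whole enamel organs of incisors from mice aged 4 weeks gave 1 RNAseq library for each of 3 genotypes. The paper names polyadenylated RNA and a directional NEBNext kit, and the labels a SMARTER kit. Reads were checked with FastQC, trimmed and aligned with STAR. Versions, genome build, annotation, counting tool and strand setting are not given in the sources used here. The authors deposited raw counts per gene symbol without normalization, for 20937 symbols. The smallest count in the table is 1, and genes at 0 in a library are not analysed here. In 25 entries, with 0.154% of counts, a date had replaced the symbol. Totals were 21496136 (Stim1 cKO), 20216507 (Stim1 HT) and 28265960 (Stim1 Ctrl).

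Stim1 cKO was tested against the grouped controls with edgeR 4.0.16 in R 4.3.3 (TMM, filterByExpr, quasi-likelihood test, 18702 genes, Benjamini-Hochberg adjustment over all of them). The fit had 1 residual degree of freedom, a common dispersion of 0.106 and 4.15 prior degrees of freedom. A call needed an adjusted p under 0.01 and a fold change over 2, as in the study. DESeq2 1.42.0, other scalings and filters and leaving out a control were alternatives. The scripts were tested on simulated counts. CPM and log2 ratios of single libraries used TMM-scaled library sizes (factors 1.13, 0.975 and 0.911), and 95% Wilson intervals cover counting error only. Exon lengths and overlaps came from GENCODE M21 on GRCm38, where all 52 genes were found, and promoters from RefSeq on GRCm38.p6. Levels per length divide CPM by the merged exon length. Python 3.11.15 was used for tables and plots.

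Genes named were all 52 members. From a list of other junction genes, those over 2-fold from both controls with a mean of at least 50 counts were named with the partners Col17a1, Itgav and Gjb6. Some genes that this rule would name are not reported here. Marker genes were named beside members they moved with, and examples that went another way were added once their values were known. Cdsn, Dsc1, Col1a1 and the epithelial reference genes are named in addition, picked once their values were known. The members and lists were chosen with earlier results of these data known.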

Additional observations from a re-analysis of the deposited data

How the results depend on the processing

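With 1 library per genotype, no result has a replicate check. No paired analysis was possible because each genotype had 1 library and the labels give no shared replicate number. The 0 junction genes called became 5 at an adjusted p under 0.05, 6 with DESeq2 and 2 without the filter on low counts. The 7 genes over 2-fold higher and 5 lower became 1 and 9 relative to the epithelial reference genes. That subtraction lowers the ratios of every gene, and the shares of all genes on its scale were not computed. Leaving out a control gave 7 to 16 higher (16 without Stim1 HT) and 6 to 7 lower. Such counts could not fall, since the rule then asks for 1 control in place of both. The median log2 fold change of 0.09 was 0.04 to 0.17 without a control, 0.26 at a mean of at least 50 counts, 0.23 with upper quartile scaling, 0.36 with library size scaling and -0.47 relative to the epithelial reference. These scalings moved the median of all genes by 0.11 (mean of at least 50 counts), 0.13 and 0.26. The number of genes over 2-fold apart between the controls was 8 to 10 across scalings.

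Genes whose sign turned had small or uneven ratios. The fold change against each control alone ran from -0.22 to 0.49 (Dsp), -0.10 to 0.16 (Pkp3), -0.81 to 1.06 (Cldn6) and -0.55 to 0.95 (Cldn17), from -0.020 to 0.041 (Perp), -0.38 to 0.22 (Pkp1), -0.16 to 0.14 (Jup), -0.30 to 0.35 (Ppl), -0.18 to 0.18 (Nectin1) and -0.35 to 0.26 (Gjb2). Cldn17 was -0.0019 with DESeq2 and -0.0078 with RLE scaling. At a mean of at least 50 counts, with upper quartile and with library size scaling in turn, Jup was 0.090, 0.11 and 0.24, Ppl 0.099, 0.12 and 0.26, Nectin1 0.10, 0.12 and 0.25, and Gjb2 0.034, 0.057 and 0.19. Pkp1 was 0.020 with upper quartile and 0.15 with library size scaling, under which Cldn6 was 0.085. Relative to the epithelial reference, values were -0.47 (Dsp), -0.55 (Perp), -0.35 (Itga6), -0.31 (Cdh1), -0.38 (Dsc3), -0.22 (F11r), -0.53 (Pkp3), -0.016 (Cldn4), -0.41 (Cldn12), -0.23 (Ocln), -0.34 (Marveld2) and -0.55 (Cldn17). The other genes kept their sign. The cause of these changes was not tested.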
